A study of Arabidopsis thaliana with 60 samples.

Results

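Transcript levels were compared between 2 h and 0 h in leaves of DEXp:mYFP, an Arabidopsis thaliana Col-0 line that carries the monomeric yellow fluorescent protein (mYFP) under a dexamethasone-inducible promoter, the control of a study in which the coiled-coil part of MLA, an immune receptor of barley, was expressed (MLACC). The comparison held 6 of the 60 libraries of the series, 3 at each time, chosen by their labels. Leaves of 4-week-old plants, grown on plates and then in pots in short days, were syringe-infiltrated with 1 µM dexamethasone, and each library came from leaf discs of 6 plants. All plants compared here, at 0 h too, carried the transgene and are labelled as infiltrated. Whether the 0 h leaves were taken before or just after infiltration is not known here, so the change may or may not hold the act of infiltration. For comparison, 6 libraries each were used of DEXp:MLACC-mYFP in Col-0 and of a mutant without a transgene (ppsdes), treated alike and taken at the same times. The ppsdes plants carry pen2-1, pad4-1 and sag101-2, and with them the hormone mutations dde2-2 (jasmonate), ein2-1 (ethylene) and sid2-2 (salicylic acid), in Col-0. Infiltration, dexamethasone, the reporter and the passing of 2 h of the day acted on the same leaves, so their shares in a change cannot be told apart. The reporter transcript was not analysed here.

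Several response systems of leaves are known to react within hours to such handling. The circadian clock runs on repressors that follow each other through the day, with CCA1 and LHY at dawn, the PRR family from morning to afternoon and the evening complex (ELF3, ELF4, LUX) at dusk. Touch and wounding raise calcium, which acts on calmodulin-like TCH proteins, WRKY and ERF transcription factors and jasmonate synthesis. Pattern recognition receptors at the cell surface, such as EFR, and their kinases, such as BIK1, start pattern-triggered immunity (PTI), of which FRK1 is a common reporter gene. Flavonoid synthesis, aquaporins and wall-loosening enzymes are tied to light, water status and growth.

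Gene counts per library were 18816903 to 25146625, and organelle transcripts took 1.04% to 1.3% of them. Defining leaf markers were high in all 6 libraries, with RBCS1A of the small Rubisco subunit at 21996 to 26411 CPM (counts per 1000000 counts of the library, scaled by TMM) at 2 h. Of the 8 root, pollen and seed markers, 5 had no count in any of the 6 libraries and CRA1 stayed at or below 0.234 CPM. SCR, which is also made in leaves, was at 44.7 to 57.9 CPM, and COBL9 is given below. The 0 h libraries resembled each other (Pearson r across genes 0.988 to 0.991 on log2(CPM + 1), a description, since genes are not independent). At 2 h, replicates 1 and 2 did so too (0.992), while replicate 3 stood apart from them (0.968 and 0.956). With the 4 h libraries of this line, replicate 3 was at 0.976, 0.970 and 0.959. Replicate 1 was there at 0.962, 0.939 and 0.966, and replicate 2 at 0.954, 0.930 and 0.966. With the 0 h libraries, replicate 3 was at 0.948, 0.959 and 0.957. Replicate 1 was there at 0.940, 0.934 and 0.941, and replicate 2 at 0.930, 0.922 and 0.928. The depth of replicate 3 was 20769066 counts. Among all 19654 genes tested, replicate 3 was under 0.5 times the next lowest 2 h library at 1711 genes, against 186 each for replicates 1 and 2. No label gives a batch or date. Counts over all genes and for some lists are therefore given with and without 2 h replicate 3. For other lists only a range over fits without 1 library, or none, is given.

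Between 0 and 2 h, 1348 genes rose and 741 fell among 19654 tested (FDR below 0.01 and absolute log2 fold change, log2FC, above 1; edgeR quasi-likelihood F test, n = 3 against 3). Adjusted p values below are from this test, and a log2FC is given ± its standard error. Where a call was lost or gained when 1 library was left out, the libraries are named with the adjusted p of those fits. This is 10.6% of the tested genes called, 6.86% up and 3.77% down, the background for every list below. The median log2FC was 1.81 among the risen genes, -1.63 among the fallen and 0.02 over all genes tested. A log2FC above 3 was reached by 345 of the risen genes, and one below -3 by 57 of the fallen. The 3 libraries at 2 h lay all above or all below those at 0 h for 50.2% of the tested genes, for 1224 of the risen and for 735 of the fallen. Without 2 h replicate 3, 1644 genes rose and 668 fell. With 1 of the other 5 libraries left out, 967 to 1109 rose and 525 to 646 fell. The lists with the highest shares of risen members were evening clock, WRKY, cold, jasmonate and PTI genes, and those with the highest shares of fallen members were flavonoid, cell wall and nitrogen and sulfur genes, as the bar plot of lists shows.

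**Figure D1:**
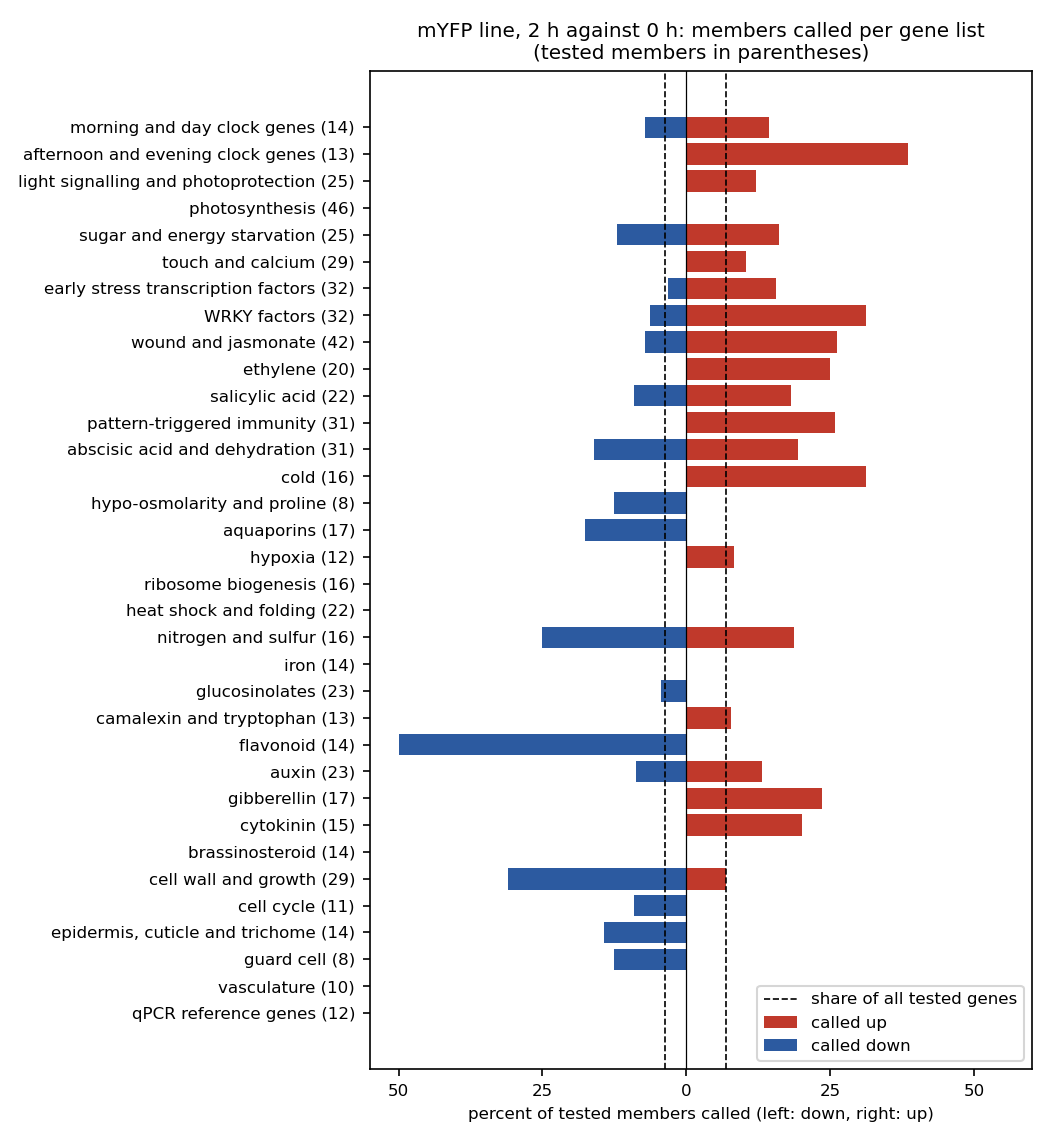
Percent of the tested members of each gene list (number tested in parentheses, lists with at least 8) that were called up (right, red) or down (left, blue) at 2 h against 0 h in the mYFP line; dashed lines mark the shares over all tested genes, 6.86% up and 3.77% down. Flavonoid genes reach 50% down, and the photosynthesis, ribosome biogenesis, heat shock, iron, brassinosteroid, vasculature and reference lists have no bar.

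Windows of 250 bases before the RefSeq gene start (TAIR10.1, whose nuclear chromosomes are those of TAIR10) are printed for 4 genes of the groups described next, each chosen for holding the letters of a known element. Each is written 5′ to 3′ toward the gene, with the matched letters in capitals. CHS is the entry enzyme of flavonoid synthesis, COR78 a cold and drought gene, WRKY30 a defence gene and TCH2 a touch gene.
CHS (chr5:4488226-4488475, plus strand; G-box CACGTG): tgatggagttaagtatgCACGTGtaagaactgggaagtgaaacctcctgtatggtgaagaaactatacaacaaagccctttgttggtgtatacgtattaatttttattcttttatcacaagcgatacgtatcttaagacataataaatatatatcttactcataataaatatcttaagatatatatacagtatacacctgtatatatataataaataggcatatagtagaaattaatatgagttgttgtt
COR78 (chr5:21240467-21240716, plus strand; DRE, ACCGAC or GCCGAC): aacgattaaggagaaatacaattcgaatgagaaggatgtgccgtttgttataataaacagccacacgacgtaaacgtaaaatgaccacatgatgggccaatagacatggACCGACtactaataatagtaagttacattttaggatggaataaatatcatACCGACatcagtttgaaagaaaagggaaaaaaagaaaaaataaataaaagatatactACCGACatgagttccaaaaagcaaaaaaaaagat
WRKY30 (chr5:8154711-8154960, minus strand; W-box, TTGACC or TTGACT): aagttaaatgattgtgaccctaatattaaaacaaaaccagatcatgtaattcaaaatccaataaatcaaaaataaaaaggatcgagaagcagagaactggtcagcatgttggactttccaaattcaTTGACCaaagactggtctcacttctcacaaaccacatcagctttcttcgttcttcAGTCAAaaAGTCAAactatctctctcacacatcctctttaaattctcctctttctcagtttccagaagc
TCH2 (chr5:14999620-14999869, minus strand; CGCGTT): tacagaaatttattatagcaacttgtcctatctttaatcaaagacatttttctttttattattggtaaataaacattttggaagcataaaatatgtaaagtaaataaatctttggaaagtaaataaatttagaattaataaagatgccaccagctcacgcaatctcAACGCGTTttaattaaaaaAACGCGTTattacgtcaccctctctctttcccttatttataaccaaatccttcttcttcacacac

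Searched on both strands, the W-box letters stood in 36.6% of 1348 windows of risen genes, 26.6% of 736 windows of fallen genes and 28.4% of all 19521 windows. The evening element (AAAATATCT) stood in 5.04%, 2.04% and 2.55%, and in 7 of 13 evening clock genes. The G-box stood in 6.45%, 7.74% and 7.40%, the DRE in 9.20%, 6.79% and 8.00%, and CGCGTT in 3.19%, 3.40% and 2.93%. CGCGTT overlaps its own reverse complement in TCH2, where 4 matches make 2 runs. These shares are descriptions, and a match is not a binding site.

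The morning clock genes that were called moved alike in all 3 replicates. LHY (AT1G01060, chromosome 1, 33365 to 37871), a dawn repressor, was at 735, 538 and 669 CPM at 0 h and at 149, 107 and 91.3 CPM at 2 h (log2FC -2.48 ± 0.34, edgeR adjusted p = 1e-05). The groups lay far apart, and LHY went on to 0.371 to 0.707 CPM at 8 h. Its partner CCA1 was at 432, 331 and 434 CPM and then at 284, 247 and 239, also without overlap, with a log2FC of -0.64 ± 0.3 that missed the threshold (edgeR adjusted p = 0.107). PRR9 (AT2G46790, chromosome 2, 19232607 to 19235179), a morning repressor of both, rose from 9.48, 11.2 and 10.6 CPM to 44.2, 48.8 and 39.8 (log2FC 2.08 ± 0.27) and was at 0.278 to 1.13 CPM at 8 h. PRR7, which follows it, rose from 50.3, 58.4 and 57.1 CPM to 169, 177 and 144 (log2FC 1.56 ± 0.13). In the list of 14 morning and day genes these were the 2 risen members and LHY the 1 fallen. With 1 library left out, 2 rose and 1 fell.

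Of 13 afternoon and evening clock genes, 5 rose and none fell, with a median log2FC of 1.08. Leaving out 1 library at a time, 3 to 5 rose and none fell. ELF3 (AT2G25930, chromosome 2, 11058944 to 11063324), the scaffold of the evening complex, rose from 1.9, 2.2 and 2.3 CPM to 8.2, 7.88 and 9.1 (log2FC 1.97 ± 0.18), and its level at 8 h was 76.9 to 81.9 CPM. GI, a large protein of the light input to the clock, rose from 27.1, 24.5 and 38.7 CPM to 67.4, 68.9 and 59.3 (log2FC 1.11 ± 0.18; not called without 0 h replicate 2, with log2FC 0.99 and adjusted p = 6.54e-04). TOC1, the evening repressor, was at 8.83, 7.49 and 9.2 CPM and then at 15.2, 24.9 and 11.2, with replicate 3 lowest (log2FC 1.01 ± 0.26; not called without any single 0 h library or 2 h replicate 2, adjusted p 0.0136 to 0.066). PRR5 was at 0.0593, 0 and 0.144 CPM at 0 h and at 0.801, 1.19 and 0.225 CPM at 2 h (log2FC 3.36 ± 0.62), far under its 78.5 to 94.3 CPM at 6 h. The RNA-binding protein gene GRP8, a clock output, rose (log2FC 1.08 ± 0.26; not called without 0 h replicate 1, adjusted p = 0.0223). Of the clock genes, the time course plot shows LHY, PRR9 and ELF3. For LHY and ELF3 the 2 h libraries lie close together there, between the 0 h and 4 h libraries.

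**Figure D2:**
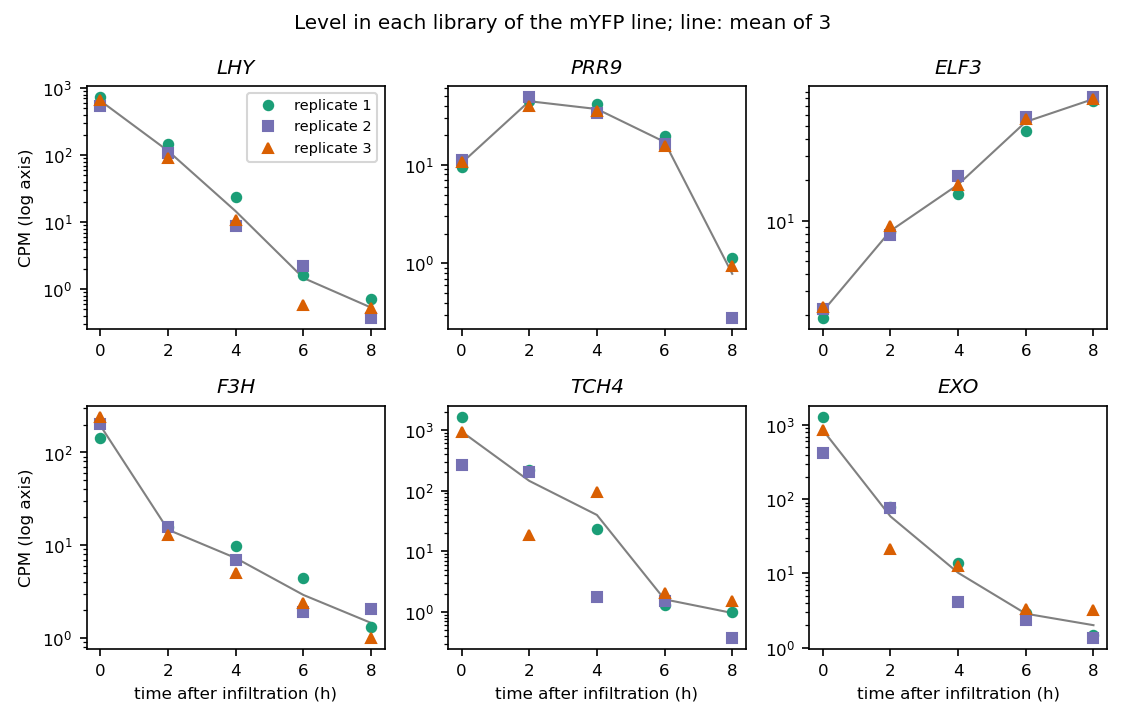
CPM (log axis) of 6 genes against time after infiltration (h) in each of the 15 libraries of the mYFP line; symbols mark the replicate and the line joins means of 3. LHY, F3H and EXO fall from 0 h on, ELF3 climbs, PRR9 is highest at 2 h, and TCH4 spreads over its replicates at 0, 2 and 4 h before reaching 0.371 to 1.52 CPM at 8 h.

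Of 25 genes of light signalling and photoprotection, 3 rose and none fell. The 3 are 12% of the list, near the 10.6% called in either direction over all tested genes. With any 1 library left out, 3 rose and none fell. The blue light receptor gene CRY2 went from 42.6 to 44.5 CPM to 96.4 to 104 (log2FC 1.21 ± 0.12). The B-box factor gene BBX22 went from 2.31, 2.72 and 3.4 CPM to 13.5, 23.6 and 13.1 (log2FC 2.57 ± 0.22), and PIF3, a phytochrome-interacting factor gene, rose (log2FC 1.25 ± 0.21). HY5, a central activator of light responses, was at 7.68 to 13.5 CPM and then 9.42 to 19.1 (log2FC 0.39 ± 0.34, not called), and ELIP1, a light stress protein gene, had a log2FC of 0.2 ± 0.35, not called. None of 46 photosynthesis genes was called (median log2FC -0.13, 2 at an unadjusted p under 0.05, none by DESeq2). An unadjusted p under 0.05 was reached by 8366 of the 19654 genes tested, the background for such counts. LHCB1.1, of the light-harvesting antenna and one of several near-identical copies, was at 10270.2 to 11175 CPM at 0 h and 8001 to 9576 at 2 h.

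Flavonoid genes had the highest share of fallen members among the lists. Of 14 tested, 7 fell and none rose, with a median log2FC of -1.41, and 6 fell without 2 h replicate 3. When 1 library was left out, none rose and 5 to 8 fell. F3H (AT3G51240, chromosome 3, 19025192 to 19026872), flavanone 3-hydroxylase, was at 142, 201 and 242 CPM at 0 h and at 15.6, 15.6 and 12.9 CPM at 2 h (log2FC -3.73 ± 0.31, edgeR adjusted p = 1.69e-08). All 2 h libraries were at similar levels, far under the lowest 0 h library, and the fall went on to 0.997 to 2.04 CPM at 8 h. CHS (AT5G13930, chromosome 5, 4488476 to 4490264), chalcone synthase, went from 266, 411 and 391.5 CPM to 36.7, 47.2 and 52.8 (log2FC -2.97 ± 0.68; not called without 2 h replicates 1 or 2, adjusted p 0.0118 to 0.0149). FLS1, flavonol synthase, fell (log2FC -3.09 ± 0.38) and 4CL3, which feeds the pathway with activated coumarate, fell as well (log2FC -2.94 ± 0.33), each in all 3 replicates.

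Some wall, cuticle and water channel genes fell too. Of 29 cell wall and growth genes, 9 fell and 2 rose (8 and none without 2 h replicate 3). With 1 library left out, 0 to 1 rose and 7 to 9 fell. EXO (AT4G08950, chromosome 4, 5740219 to 5741591), EXORDIUM, which promotes leaf growth, was at 1287, 414 and 867 CPM at 0 h, with replicate 2 lowest, and at 78.5, 75.7 and 21.5 CPM at 2 h, with replicate 3 lowest (log2FC -3.87 ± 0.54). It kept falling to 1.34 to 3.2 CPM at 8 h. Its relative EXL3 went from 796, 614 and 699 CPM to 55.9, 43.7 and 29 (log2FC -4.04 ± 0.69), and EXL5 fell (log2FC -3.61 ± 0.28). The xyloglucan-modifying enzyme gene XTH25 fell from 21.5, 14.1 and 13.2 CPM to 1.07, 0.656 and 0.451 (log2FC -4.46 ± 0.41). XTH17 fell (log2FC -2.85 ± 0.62; not called without 2 h replicate 1, adjusted p = 0.0101). XTH33 fell (log2FC -3.17 ± 0.76; not called without 0 h replicates 1 or 3 or 2 h replicates 2 or 3, adjusted p 0.0133 to 0.0175). The risen members were the expansin gene EXP1, from 72.7, 110.3 and 119 CPM to 464, 341 and 748 (log2FC 2.36 ± 0.64; not called without any single 0 h library or 2 h replicates 1 or 3, adjusted p 0.0143 to 0.0364), and the cellulase gene GH9B1. Its log2FC was 1.22 ± 0.34 (not called without 0 h replicates 1 or 3 or any single 2 h library, adjusted p 0.014 to 0.0528).

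Of 17 aquaporin genes, 3 fell and none rose (median log2FC -0.996; DESeq2 called 6). Leaving out 1 library at a time, none rose and 2 fell. PIP2;7, a plasma membrane water channel, was at 1328, 1035 and 1041 CPM at 0 h and at 224, 185 and 198 CPM at 2 h (log2FC -2.49 ± 0.53), without overlap, and remained at 154 to 247 CPM at 8 h. PIP1;4 fell (log2FC -1.3 ± 0.24) and PIP1;3 fell (log2FC -1.87 ± 0.51; not called without any single library, adjusted p 0.0144 to 0.035). Among 14 epidermal and cuticle genes, CER4, a fatty acyl reductase gene of wax synthesis, fell (log2FC -3.27 ± 0.69) and KCS1, of fatty acid elongation, from 316, 224 and 227 CPM to 107, 95.2 and 62.1 (log2FC -1.54 ± 0.28). The epidermal identity gene ATML1 was at 50.3 to 56.8 CPM at 0 h and 33.6 to 46.2 at 2 h. GPAT3, a glycerol-3-phosphate acyltransferase gene, fell from 252, 105 and 151 CPM to 11.1, 14.6 and 5.5 (log2FC -4.02 ± 0.42).

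The TCH genes were higher at 0 h than at 6 h, and their levels at 2 h split by replicate. TCH4 (AT5G57560, chromosome 5, 23307006 to 23308680), a xyloglucan-modifying enzyme induced by touch, was at 1647, 266 and 916 CPM at 0 h and 215, 201 and 18.9 at 2 h. The groups did not overlap, but both spread widely, and the log2FC of -2.7 ± 0.88 missed the threshold (edgeR adjusted p = 0.022). At 6 h TCH4 was at 1.28 to 2.02 CPM (log2FC against 0 h -9.19 ± 1.2). TCH2 (AT5G37770, chromosome 5, 14997514 to 14999619), a calmodulin-like protein gene, was at 153, 77.5 and 99.4 CPM, then 61.6, 70.1 and 25.9 at 2 h (log2FC -1.07 ± 0.32, not called) and 6.24 to 7.82 at 6 h. TCH2 was called down without 0 h replicate 2 (log2FC -1.27, edgeR adjusted p = 0.00942). TCH3, its relative, was at 729, 249 and 531 CPM and then at 1020.4, 1374 and 194, above all 0 h libraries in replicates 1 and 2 and below them in replicate 3 (log2FC 0.78 ± 0.64, not called).

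The touch and calcium list held 3 risen and no fallen genes among 29, and 4 risen without 2 h replicate 3. The 3 are 10.3% of the list, near the 10.6% called in either direction over all tested genes. With any 1 library left out, 2 to 4 rose and 0 to 1 fell. ACA12 (AT3G63380), a calcium pump gene, had 2 counts in all at 0 h and 16.3, 26.8 and 0.541 CPM at 2 h, a ratio of 444 (95% counting interval 123 to 3670.03, counting error only) with replicate 3 far lowest. The calcium-binding protein gene AT3G01830 was at 0.0479 to 0.178 CPM and then at 13.9, 20.7 and 0.496 (log2FC 6.76 ± 1.37). The pump gene ACA2 was at 30.5, 29.2 and 31.4 and then 91, 156 and 34.1 (log2FC 1.62 ± 0.44; not called without any single 0 h library or 2 h replicates 1 or 2, adjusted p 0.0136 to 0.0778). CML38 was at 11.9, 3.84 and 8.1 CPM and then 12, 10.01 and 1.35 (log2FC -0.02 ± 0.69), and CML37 at 0.771, 0.14 and 0.144 and then 1.18, 1.6 and 0 CPM. Both were not called and were lowest in 2 h replicate 3.

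Defence genes showed wide gaps between the 2 h replicates. IOS1 (AT1G51800, chromosome 1, 19214072 to 19218053), a receptor kinase gene of PTI, was at 0.356, 0.515 and 1.34 CPM at 0 h and at 136, 312 and 12.8 CPM at 2 h (log2FC 7.67 ± 1.25, edgeR adjusted p = 7.26e-05). All 2 h libraries exceeded all 0 h libraries, but replicate 3 was far under replicates 1 and 2. The nearby kinase genes AT1G51820 and AT1G51850 share sequence and so may share reads. They were at 166, 312 and 7.98 CPM and 32.6, 95 and 1.08 CPM at 2 h, against at most 1.53 and 0.24 at 0 h. FRK1 (AT2G19190, chromosome 2, 8326049 to 8329944) went from 0.119, 0.0468 and 0.0479 CPM to 8.66, 15.2 and 0.135 (log2FC 6.77 ± 1.69; not called without any single 0 h library or 2 h replicate 2, adjusted p 0.0152 to 0.021). In replicate 3 it was barely above 0 h.

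Of 31 PTI genes, 8 rose and none fell, and 12 rose without 2 h replicate 3. When 1 library was left out, 4 to 12 rose and none fell. EFR, the receptor for bacterial EF-Tu, was at 2.73, 1.87 and 2.63 CPM and then at 26.7, 29.9 and 9.78 (log2FC 3.2 ± 0.38). BIK1, a cytoplasmic kinase of receptor complexes, was at 5.1, 4.54 and 6.8 CPM and then at 81.1, 117 and 18.7 (log2FC 3.72 ± 0.59). The ubiquitin ligase gene PUB23, a negative regulator of PTI, was at 5.99, 1.31 and 3.5 and then 74.3, 88.5 and 3.56 (log2FC 3.96 ± 0.99; not called without 0 h replicates 2 or 3 or 2 h replicates 1 or 2, adjusted p 0.0112 to 0.0245). Each was lowest in replicate 3 at 2 h, and PUB23 there overlapped 0 h.

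Of 32 WRKY genes, 10 rose and 2 fell, and 14 and 1 without 2 h replicate 3. With 1 library left out, 4 to 14 rose and 1 fell. WRKY30 went from 0.0593, 0.234 and 0.383 CPM to 22.8, 27.6 and 2.03 (log2FC 6.19 ± 1.07). WRKY28 went from 0.119, 0.14 and 0.24 to 6.68, 10.8 and 1.31 (log2FC 5.17 ± 1.01). WRKY46 rose (log2FC 3.32 ± 0.81; not called without any single 0 h library or 2 h replicate 2, adjusted p 0.0125 to 0.0307). WRKY48 rose (log2FC 2.86 ± 0.78; not called without 0 h replicates 2 or 3 or 2 h replicates 1 or 2, adjusted p 0.0154 to 0.0646). WRKY40 (AT1G80840), a fast regulator of defence, was at 9.19, 5.01 and 7.09 CPM at 0 h and at 93.7, 103 and 2.16 CPM at 2 h. Replicate 3 thus lay under all 0 h libraries, and WRKY40 was not called (log2FC 3.22 ± 1.08, edgeR adjusted p = 0.0251). WRKY33, which acts on camalexin synthesis, had a like split, with 40.1, 16.9 and 22.1 CPM and then 251, 241 and 16.9 (log2FC 2.69 ± 0.86, not called). Without 2 h replicate 3, WRKY40 was called up (log2FC 3.79, edgeR adjusted p = 0.00444). So was WRKY33 (log2FC 3.22, edgeR adjusted p = 0.00339). WRKY70, a regulator of salicylic acid responses, fell in all 3 replicates, from 143, 83.8 and 128 CPM to 25.1, 18.7 and 19.7 (log2FC -2.48 ± 0.52). WRKY8, at most at 1.01 CPM, fell (log2FC -2.84 ± 0.8; not called without any single library, adjusted p 0.0111 to 0.0333).

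Of 32 early stress transcription factor genes, 5 rose and 1 fell, against 12 and none without 2 h replicate 3. Leaving out 1 library at a time, 2 to 12 rose and 0 to 3 fell. RAP2.6 was at 0.0593, 0.0468 and 0.192 CPM and then at 17.1, 21.1 and 1.94 (log2FC 6.97 ± 1.29). ZAT11 was at 19.3, 15.6 and 0.135 CPM at 2 h (log2FC 5.58 ± 1.47; not called without any single 0 h library or 2 h replicates 1 or 2, adjusted p 0.0154 to 0.0305). CZF1 was at 190.3, 192 and 25.7 (log2FC 2.6 ± 0.66; not called without any single 0 h library or 2 h replicates 1 or 2, adjusted p 0.0125 to 0.0259). MYB15, with 2 counts in all at 0 h, was at 4.69, 4.18 and 0 (ratio 91.4, 95% counting interval 25 to 759; not called without any single 0 h library or 2 h replicates 1 or 2, adjusted p 0.0234 to 0.0314). In these 3 genes replicate 3 was within the range of 0 h. The fallen member, MYB73, had a log2FC of -1.35 ± 0.36 (not called without 0 h replicates 1 or 3 or 2 h replicate 3, adjusted p 0.0216 to 0.0361). ZAT10 was at 37.2, 14.6 and 12.3 CPM and then 68, 74.2 and 3.74, and ERF5 at 3.79, 4.92 and 5.46 and then 28.7, 24.6 and 1.89. ZAT12 was at 8.42, 6.37 and 3.54 and then 6.68, 8.21 and 1.22. None of them was called. CAMTA3, a calmodulin-binding transcription factor gene, was at 53.3, 30.8 and 44 CPM and then 86.9, 128 and 39.8 (log2FC 0.99 ± 0.31, not called). Without 2 h replicate 3, CAMTA3 was called up (log2FC 1.33, edgeR adjusted p = 7.3e-04). So was ERF5 (log2FC 2.5, edgeR adjusted p = 4.17e-04).

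**Figure D3:**
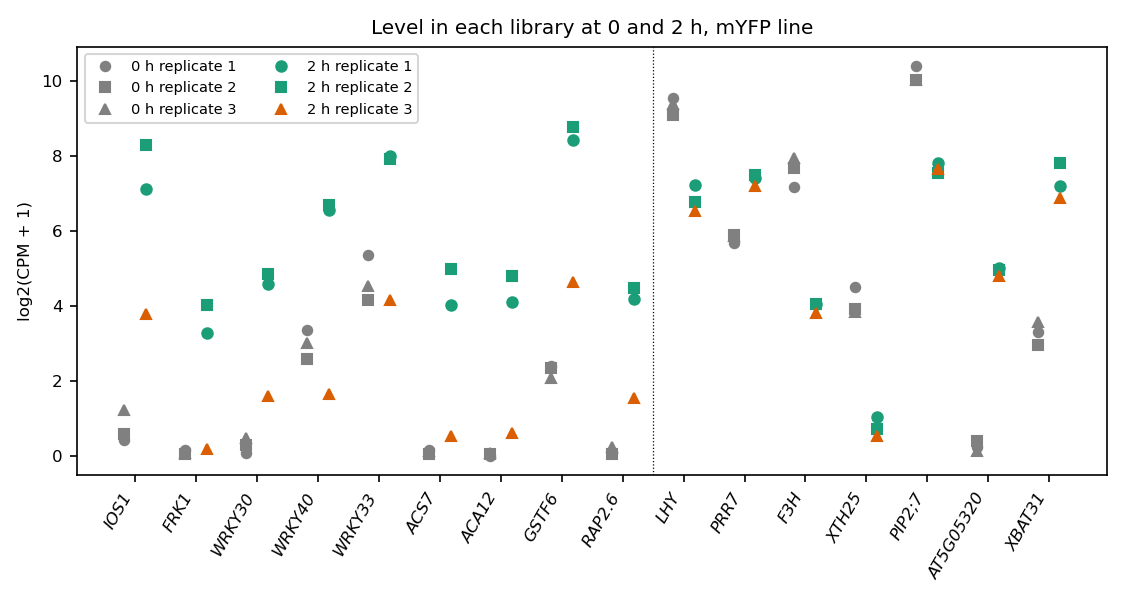
log2(CPM + 1) in each 0 h (grey) and 2 h (colour) library of the mYFP line for 9 stress and defence genes (left of the dotted line) and 7 other named genes; triangles mark replicate 3, orange at 2 h. For the 9 genes on the left the orange triangle lies well under the other 2 h symbols, and for the 7 on the right the 2 h symbols lie together.

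Among the 1348 risen genes, replicate 3 was the lowest 2 h library for 935 and under 0.5 times the next lowest for 418, against 2 for replicate 1 and 8 for replicate 2. Among the 741 fallen genes it was the lowest for 352 (47.5%) and under 0.5 times the next lowest for 48 (6.48%). Over all tested genes it was the lowest for 42.8%, beside 69.4% of the risen genes. It was also the highest 2 h library for 7098 of all tested genes, against 5774 for replicate 1 and 6782 for replicate 2. The 418 are 31.0% of the risen genes, beside 8.71% of all tested genes at which replicate 3 was under 0.5 times the next lowest. Because the calls themselves use these libraries, this is a description. At 4 h replicate 3 was the highest for IOS1 (59.9, 9.63 and 239 CPM), FRK1 (5.12, 5.38 and 96.7 CPM) and WRKY40 (3.73, 1.22 and 81.8 CPM), and other genes were not counted at that time. The plot of list medians shows which lists split and which did not. The part of any property of replicate 3 in these values was not tested.

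**Figure D4:**
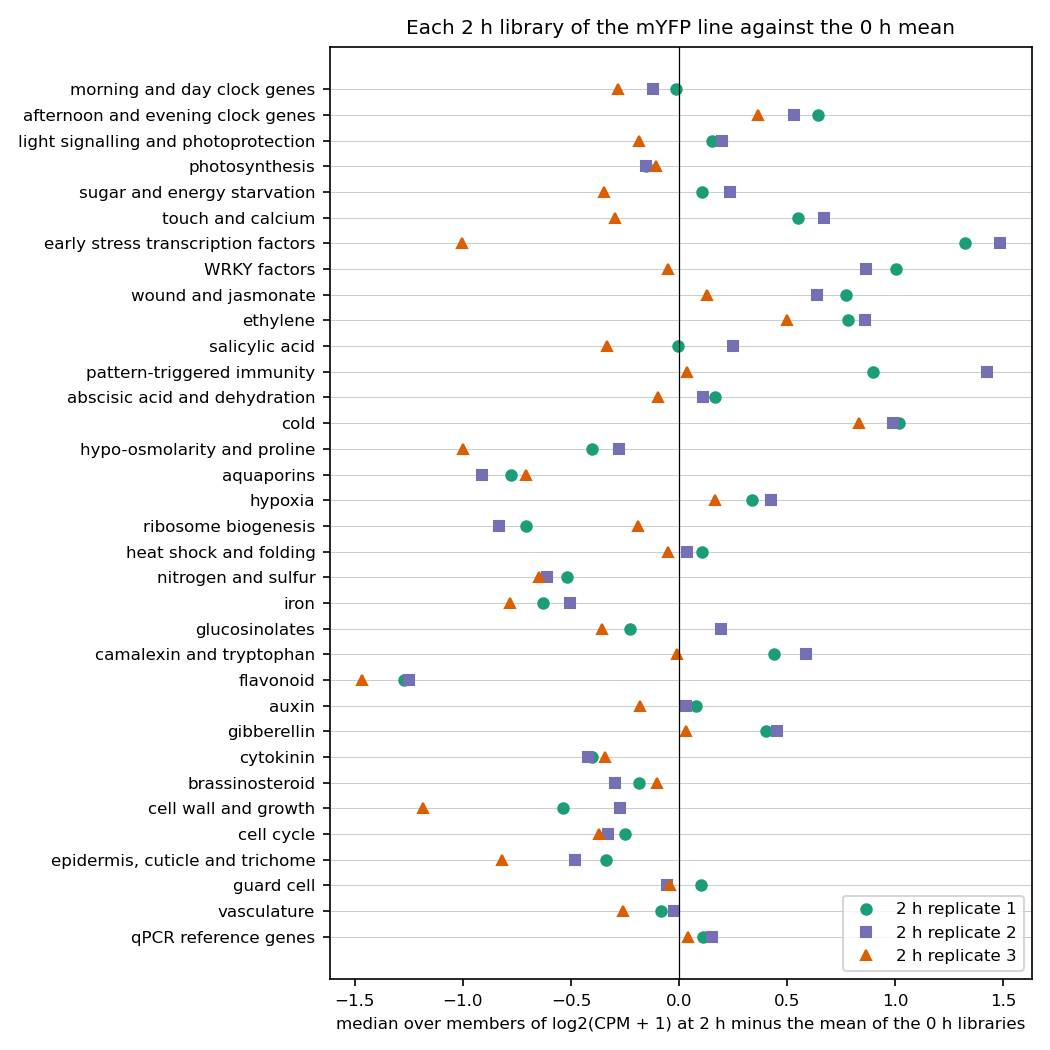
Median over the tested members of each list (at least 8) of log2(CPM + 1) in each 2 h library minus the mean of the 0 h libraries. Early stress factors are at 1.33, 1.49 and -1.005 in replicates 1, 2 and 3, while flavonoid genes are at -1.27, -1.25 and -1.47 and cold genes at 1.02, 0.99 and 0.83.

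Jasmonate genes rose in part. Of 42 wound and jasmonate genes, 11 rose and 3 fell (16 and 1 without 2 h replicate 3). With any 1 library left out, 9 to 16 rose and 1 to 2 fell. The allene oxide cyclase gene AOC3 went from 0.83, 0.281 and 0.431 CPM to 18.9, 18.1 and 5.72 (log2FC 4.82 ± 0.64). AOC1 went from 4.39, 4.12 and 2.78 to 47.6, 35.7 and 19.4 (log2FC 3.19 ± 0.56). The peroxisomal reductase gene OPR3 of the same pathway rose from 13.1, 10.2 and 10.7 CPM to 43, 35.2 and 30.6 (log2FC 1.68 ± 0.4; not called without 0 h replicates 2 or 3 or 2 h replicate 1, adjusted p 0.0113 to 0.0156). The genes for turnover, ST2A, a hydroxyjasmonate sulfotransferase, and AT5G05600, a 2-oxoglutarate-dependent oxygenase, were at 8.93, 9.48 and 0.856 CPM and 60.6, 45.3 and 18.7 CPM at 2 h (log2FC 6.45 ± 1.38 and 3.39 ± 0.64). The repressor gene JAZ10 rose from 1.13, 1.69 and 1.53 CPM to 13.9, 11.4 and 9.46 (log2FC 2.99 ± 0.39). MYC2, the main activator, rose from 16.6, 10.2 and 6.8 to 46, 53.4 and 27.3 (log2FC 1.92 ± 0.37).

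Other members of the pathway fell or were not called. JAZ3 fell from 34.1, 24.2 and 26.6 CPM to 11.2, 6.77 and 6.13 (log2FC -1.81 ± 0.19), while JAZ6 (log2FC -1.21 ± 0.34; not called without 0 h replicates 1 or 3 or any single 2 h library, adjusted p 0.0156 to 0.0909) and LOX6 (log2FC -1.04 ± 0.3; not called without any single 0 h library or 2 h replicates 1 or 3, adjusted p 0.0162 to 0.0401) fell by less. LOX2, the abundant chloroplast lipoxygenase gene, was at 186, 146 and 113 CPM and then at 95, 87.7 and 54.9 (log2FC -0.9 ± 0.36, not called), and rose later, to 556 to 683 CPM at 8 h (log2FC against 0 h 2.06 ± 0.37). VSP2, a late jasmonate marker, stayed at or below 0.89 CPM at both times.

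Of 20 ethylene genes, 5 rose and none fell. When 1 library was left out, 2 to 5 rose and none fell. The ACC synthase genes, of ethylene synthesis, were low at 0 h. ACS7 went from at most 0.119 CPM to 15.3, 30.8 and 0.451 (log2FC 7.42 ± 1.73; not called without any single 0 h library or 2 h replicate 2, adjusted p 0.0105 to 0.0144). ACS4 went from 0.711, 4.45 and 0.623 CPM to 11.3, 10.3 and 10.2 (log2FC 2.43 ± 0.56; not called without 0 h replicates 1 or 3, adjusted p 0.0156 to 0.0163). ACS2 rose to 0.586 to 1.48 CPM (log2FC 3.77 ± 0.88; not called without 0 h replicate 2 or 2 h replicate 2, adjusted p 0.0114 to 0.0154). The receptor gene ETR2 rose from 0.533, 1.03 and 1.48 CPM to 5.23, 5.09 and 6.81 (log2FC 2.46 ± 0.64; not called without any single library, adjusted p 0.0104 to 0.0295). ACS4 and ETR2 were at similar levels in all 2 h libraries, while ACS7 was all but lacking in replicate 3.

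Of 22 salicylic acid genes, 4 rose and 2 fell. With 1 library left out, 0 to 5 rose and 1 to 2 fell. SARD1, an activator of salicylic acid synthesis, was at 7.47, 4.87 and 2.87 CPM and then at 26.1, 34.1 and 7.21 (log2FC 2.16 ± 0.5; not called without 0 h replicates 2 or 3 or 2 h replicate 2, adjusted p 0.011 to 0.0174). Its relative CBP60G was at 9.6, 4.82 and 4.41 and then 57.9, 102 and 3.38 (log2FC 3.13 ± 0.89; not called without any single 0 h library or 2 h replicates 1 or 2, adjusted p 0.0189 to 0.0665). PAD4, a lipase-like immune regulator, was at 6.28, 3.46 and 3.54 and then 12.9, 30.8 and 4.96 (log2FC 1.88 ± 0.51; not called without 0 h replicates 2 or 3 or 2 h replicate 2, adjusted p 0.0361 to 0.118). In replicate 3 each of these was within or under the range of 0 h. AT5G52810 rose (log2FC 1.16 ± 0.28; not called without 0 h replicates 2 or 3, adjusted p 0.01 to 0.0192). NPR4, a salicylic acid receptor gene, fell from 33.1, 24.2 and 22.1 CPM to 10.1, 11.5 and 9.78 (log2FC -1.34 ± 0.27). The glucosyltransferase gene UGT74F2 fell (log2FC -1.59 ± 0.36; not called without 0 h replicate 3 or 2 h replicate 2, adjusted p 0.0155 to 0.0156). The synthesis gene SID2 was at 14.8 to 17.605 and 13.3 to 19.1 CPM (log2FC -0.03 ± 0.27), and the late marker PR1 had no count in 5 of the 6 libraries. In the camalexin list of 13, 1 gene rose, and 2 without 2 h replicate 3. The 1 gene is 7.69% of the list, near the 6.86% risen over all tested genes. It was GSTF6, a glutathione transferase gene, which rose from 4.27, 4.07 and 3.26 CPM to 344, 437 and 23.6 (log2FC 6.11 ± 0.83).

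Some cold-responsive genes rose, while the CBF genes, which encode activators of this group, were not called. Of 16 cold genes, 5 rose and none fell, with a median log2FC of 1.11, and 5 rose without 2 h replicate 3. Leaving out 1 library at a time, 2 to 5 rose and none fell. COR78 (AT5G52310, chromosome 5, 21240717 to 21243644), also known as RD29A, rose from 25.3, 42.9 and 37.7 CPM to 348, 263 and 232 (log2FC 2.99 ± 0.67; not called without 0 h replicate 1, adjusted p = 0.0122), and was at 918 to 1354 CPM at 8 h. The galactinol synthase gene GOLS3 went from 0, 1.08 and 0.479 CPM to 26.4, 17.2 and 13.6 (log2FC 5.12 ± 1.13; not called without 0 h replicate 3, adjusted p = 0.0102). The dehydrin gene LTI30 went from 0.652, 0.702 and 0.671 to 21.5, 20.1 and 5 (log2FC 4.51 ± 0.6), and COR414-TM1 rose (log2FC 3.14 ± 0.89; not called without any single 0 h library or 2 h replicates 1 or 2, adjusted p 0.0289 to 0.0391). COR15A was at 89.2, 115 and 138 CPM and then 268, 322 and 215, not called. CBF1 was at 0.0958 to 0.533 CPM and then 0.135 to 0.615, CBF2 at 12.1, 5.66 and 2.83 and then 1.56, 3.45 and 1.13 (log2FC -1.73 ± 0.63). CBF3, with 3 counts in all at 0 h, was at 0 to 0.119 and then 0.649 to 0.766 CPM (ratio 13.5, 95% counting interval 4.37 to 67.9). None of them was called. These 3 genes are close copies in tandem.

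Of 31 abscisic acid and dehydration genes, 6 rose and 5 fell. With any 1 library left out, 3 to 5 rose and 3 to 5 fell. Among the risen were the synthesis genes NCED5, from 0.178, 0.328 and 0.0479 CPM to 1.87, 2.67 and 3.92 (log2FC 3.88 ± 0.61), and NCED3. NCED3 went from 2.61, 1.97 and 1.68 to 5.15, 14.4 and 4.73 (log2FC 1.96 ± 0.47; not called without 0 h replicates 2 or 3 or 2 h replicate 2, adjusted p 0.0131 to 0.0357). Others were the factor gene DREB2A (log2FC 3.04 ± 0.54) and the lowly expressed catabolic gene CYP707A2 (log2FC 3.16 ± 0.84; not called without any single library, adjusted p 0.0109 to 0.0295). The fallen members were ABF3, a factor that binds abscisic acid response elements, from 76.6, 66.5 and 66.6 CPM to 20.4, 22.8 and 19.2 (log2FC -1.75 ± 0.21), AFP1 (log2FC -2.3 ± 0.44), and PP2CA, a phosphatase of the receptor pathway (log2FC -1.39 ± 0.27). ATHB7 (log2FC -1.17 ± 0.3; not called without any single 0 h library or 2 h replicates 1 or 3, adjusted p 0.0102 to 0.0275) fell too. So did OST1, the kinase of stomatal closure, which also was the 1 member called of 8 guard cell genes (log2FC -1.12 ± 0.16). HAI1, an early marker of the hormone, was at 0.479 to 1.6 CPM and then 0.406 to 1.37, not called.

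Of 8 tested genes of hypo-osmolarity and proline, 1 fell, and 1 to 2 with 1 library left out. P5CR, the last enzyme of proline synthesis, fell from 68.6, 74.9 and 79.1 CPM to 30.2, 29.99 and 36.1 (log2FC -1.21 ± 0.15). P5CS1, the first enzyme, was at 42.8, 60.5 and 51.9 and then 22.1, 37.5 and 25.2 CPM, and ERD5, proline dehydrogenase, at 467, 252 and 497 and then 299, 369.7 and 109, neither called. Of 12 hypoxia genes, PDC2, pyruvate decarboxylase, rose from 7.65, 4.87 and 7.95 CPM to 35.6, 41.8 and 20.4 (log2FC 2.26 ± 0.26). PDC2 was the only member called, 8.33% of the list, near the 6.86% risen over all tested genes. The low-oxygen marker ADH1 stayed at 1.22 to 1.87 and then 1.13 to 1.72 CPM, PDC1 had 1 count at 0 h and 13 at 2 h, a ratio of 10.6 (95% counting interval 1.59 to 449), and PCO1 was too low to be tested.

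Of 25 sugar and starvation genes, 4 rose and 3 fell. When 1 library was left out, 3 to 5 rose and 3 fell. The fallen members were trehalose phosphate synthase genes, TPS8 from 379, 158 and 319 CPM to 108, 83.1 and 75.9 (log2FC -1.68 ± 0.29), TPS11 with log2FC -1.77 ± 0.37 and TPS9 with -1.65 ± 0.31, and in each the 0 h replicate 2 was the lowest at 0 h. The hexose transporter gene STP13 rose from 2.67, 2.06 and 2.92 CPM to 43.9, 73.9 and 8.92 (log2FC 4.05 ± 0.72), and BCAT2, of branched-chain amino acid breakdown, rose (log2FC 3.82 ± 0.66). GPT2, a plastid glucose phosphate transporter gene, went from 0.178 to 0.335 CPM to 8.66, 8.78 and 0.586 (log2FC 4.64 ± 0.83), and STP4 rose (log2FC 1.39 ± 0.34; not called without 0 h replicates 1 or 2 or 2 h replicate 2, adjusted p 0.0137 to 0.03). The dark-inducible genes DIN6 (42.7, 17.603 and 18.3 CPM, then 98.9, 83 and 24.5), DIN10 (1849, 691 and 1946, then 1055, 914 and 459.7) and SEN1 (37.6, 11 and 20.7, then 127, 99.4 and 44.9) were not called. SEN1 was called up without 0 h replicate 1 or 2 h replicate 3 (edgeR adjusted p 0.00595 to 0.00835). BT2, a sugar- and nitrate-responsive scaffold protein gene, fell from 411, 94.9 and 352 CPM to 23.1, 8.66 and 13.1 (log2FC -4.26 ± 0.68), and was back at 100.3 to 139 CPM at 8 h.

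Of 16 nitrogen and sulfur genes, 3 rose and 4 fell (3 and 1 without 2 h replicate 3). With 1 library left out, 1 to 3 rose and 1 to 5 fell. GLN1.1, cytosolic glutamine synthetase, rose from 1.19, 2.67 and 3.02 CPM to 49.2, 138 and 9.87 (log2FC 4.82 ± 0.7), and the nitrate transporter genes NRT1.7 (log2FC 1.36 ± 0.3; not called without 0 h replicate 2, adjusted p = 0.0119) and NRT1.1 (log2FC 1.29 ± 0.33; not called without any single 0 h library or 2 h replicates 1 or 2, adjusted p 0.0151 to 0.0288) rose less. The fallen members were NIR1, nitrite reductase, from 819, 711 and 1073 CPM to 279, 189.7 and 482 (log2FC -1.45 ± 0.32; not called without 0 h replicate 3 or 2 h replicates 1 or 2, adjusted p 0.0107 to 0.0162), and the APS reductase genes APR2 (log2FC -1.46 ± 0.34; not called without 0 h replicate 1 or any single 2 h library, adjusted p 0.0105 to 0.0138) and APR3 (log2FC -1.81 ± 0.51; not called without 0 h replicates 1 or 3 or 2 h replicates 1 or 3, adjusted p 0.0242 to 0.0477). The vacuolar sulfate transporter gene SULTR4;2 fell as well (log2FC -1.98 ± 0.47; not called without 0 h replicate 1 or 2 h replicates 2 or 3, adjusted p 0.0123 to 0.0293). NIA1, nitrate reductase, was at 465, 359 and 374 CPM and then 507, 335 and 713, not called.

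Growth hormone genes moved in both directions. Of 23 auxin genes, 3 rose and 2 fell. Leaving out 1 library at a time, 2 to 3 rose and 2 fell. GH3.3, which conjugates auxin, went from at most 0.187 CPM to 3.47, 12.9 and 3.34 (log2FC 6.2 ± 0.85), and IAA29 from 0.119, 0.421 and 0.0958 to 2.25, 2.67 and 3.43 (log2FC 3.64 ± 0.68). TAA1, of auxin synthesis, rose (log2FC 1.66 ± 0.39; not called without 0 h replicate 1, adjusted p = 0.0167). The repressor genes IAA14 and IAA6 fell, from 7.23, 8.85 and 6.32 CPM to 0.572, 0.903 and 0.541 (log2FC -3.46 ± 0.61) and from 10.5, 6.51 and 4.79 to 0.916, 0.451 and 1.13 (log2FC -3.12 ± 0.56). Of 17 gibberellin genes 4 rose, and 2 to 4 with 1 library left out. The 4 were the receptor genes GID1B (log2FC 2.53 ± 0.38) and GID1C (log2FC 1.2 ± 0.22) and the catabolic genes GA2OX6 (log2FC 3.63 ± 0.86; not called without 0 h replicates 1 or 2 or 2 h replicate 2, adjusted p 0.0102 to 0.0194) and GA2OX8 (log2FC 3.38 ± 0.83; not called without 0 h replicates 2 or 3 or 2 h replicates 1 or 2, adjusted p 0.0127 to 0.025). Of 15 cytokinin genes 3 rose, among them CKX3, a cytokinin oxidase, from 1 count in all at 0 h to 4.16, 6.15 and 5.27 CPM, a ratio of 305 (95% counting interval 54.5 to 12095). CKX4 rose (log2FC 2.15 ± 0.49; not called without 0 h replicate 1 or 2 h replicate 2, adjusted p 0.0127 to 0.0143) and the response factor gene CRF6 rose (log2FC 1.38 ± 0.23). MCM2, of the replication helicase, was the only member called among 11 cell cycle genes, from 13.4, 17.369 and 16 CPM to 3.85, 4.76 and 5.72 (log2FC -1.71 ± 0.26).

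Lists without any call by edgeR were ribosome biogenesis (16 tested, 9 at an unadjusted p under 0.05, median log2FC -0.56, 1 called by DESeq2, 3 fallen without 2 h replicate 3) and heat shock and folding (22, 3 under 0.05, none by DESeq2). In heat shock and folding 1 gene was called up without 0 h replicate 1 or 2 or 2 h replicate 1 or 3. No call was made either in iron (14, 1 under 0.05, none by DESeq2), brassinosteroid (14, 3 under 0.05, none by DESeq2), vasculature (10, 1 under 0.05, none by DESeq2) and reference genes (12, 5 under 0.05, none by DESeq2). Beside these counts, 8366 of all 19654 genes tested were at an unadjusted p under 0.05. FIB2, fibrillarin, had the largest change of the ribosome list (17, 25.2 and 35.6 CPM, then 8.7, 5.79 and 15.1). FIB2 was called down without 2 h replicate 3 (log2FC -1.83, edgeR adjusted p = 0.00618). HSFA2 was at 0.0593 to 0.431 and then 0.451 to 2.37 CPM. In the brassinosteroid list BEE3 was at 7.82, 16.2 and 62.8 CPM and then 6.37, 7.3 and 5.36. Among reference genes UBC9 had the largest log2FC, 0.74 ± 0.15. CYP79B3, of indole glucosinolate synthesis, was the 1 fallen member of 23 in its list (log2FC -2.01 ± 0.46; not called without 2 h replicate 3, adjusted p = 0.011). CYP79B3 alone makes 4.35% of that list, near the 3.77% fallen over all tested genes. COBL9, a root hair gene without a count at 0 h, was at 1.22, 0.328 and 1.26 CPM at 2 h, at least 18.4-fold higher against a floor of 3 counts over the group.

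The largest changes and those with the lowest p were partly in genes outside these lists. AT3G41762, an uncharacterized gene, had no count at 0 h and was at 6.3, 4.55 and 7.12 CPM at 2 h, at least 118-fold higher, and at 12.1 to 17.9 CPM at 8 h. AT5G05320, annotated as an FAD-dependent oxidoreductase, had the lowest p of the risen genes, from 0.178, 0.328 and 0.0958 CPM to 30.9, 29.8 and 26.9 (log2FC 7.13 ± 0.39, edgeR adjusted p = 5.82e-11). AT3G21320, annotated as an EARLY FLOWERING protein, went from 3 counts in all to 19.8, 17.2 and 19.2 CPM, a ratio of 369 (95% counting interval 126 to 1790.4). In these genes replicate 3 did not stand apart. It did in MDHAR, a monodehydroascorbate reductase gene with no count at 0 h and 7.36, 7.55 and 0.361 CPM at 2 h (at least 104-fold higher). It did too in the lipid transfer family gene AT4G22470 at 27.2, 42.2 and 0.18 CPM, and in the aspartyl protease gene AT5G48430 at 14.4, 41.5 and 0.315 CPM (not called without any single 0 h library or 2 h replicate 2, adjusted p 0.0154 to 0.0195).

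Rises of lower size among the 5 with the lowest p included XBAT31, from 8.89, 6.69 and 10.8 CPM to 146, 222 and 117 (log2FC 4.19 ± 0.27). The peptide gene RTFL8 (log2FC 4.19 ± 0.27), the cytochrome P450 gene CYP706A4 (log2FC 2.38 ± 0.14) and the Sec14-like gene AT1G75370 (log2FC 1.53 ± 0.1) were among them too. The 5 falls with the lowest p included AT1G02380 (log2FC -3.46 ± 0.2) and AT5G65470, an O-fucosyltransferase family gene (-2.78 ± 0.18). The others were AT1G30690, another Sec14-like gene (-2.18 ± 0.15), EXL5 and AT1G22882 (-2.24 ± 0.18). The largest falls besides those given were in AT5G25240, from 22, 13.1 and 17.2 CPM to 0.954, 0.574 and 0.496 (log2FC -4.67 ± 0.46), AT1G52750 (-4.14 ± 0.46), AT1G50040 (-3.94 ± 0.44), AT2G30930 (-3.83 ± 0.34) and AT5G03120 (-3.74 ± 0.69).

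The ppsdes control gave a separate set of infiltrated leaves. There 7.59% of 19216 tested genes rose and 4.45% fell. Over the 19004 genes tested in both tables, 770 genes rose in both, 58.5% of the 1316 risen in the mYFP line and 52.9% of the 1456 risen in the ppsdes control. Another 397 fell in both, 53.9% of 737 fallen in the mYFP line and 46.7% of 851 in the ppsdes control. Of the genes called up in the mYFP line, 2 were called down in the ppsdes control, the esterase gene AT1G28570 (log2FC 1.96 and -1.18) and the lipid recognition domain gene AT5G23820 (1.52 and -1.18). LHY, PRR7, IOS1, COR78, PIP2;7 and EXO had log2FC of -2.16, 1.7, 10.32, 4.14, -2.16 and -4.005 in the ppsdes control, all called. IOS1 was there at 5.64, 59.6 and 86.2 CPM at 2 h, so for this gene the 2 h libraries differed widely in that line too.

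**Figure D5:**
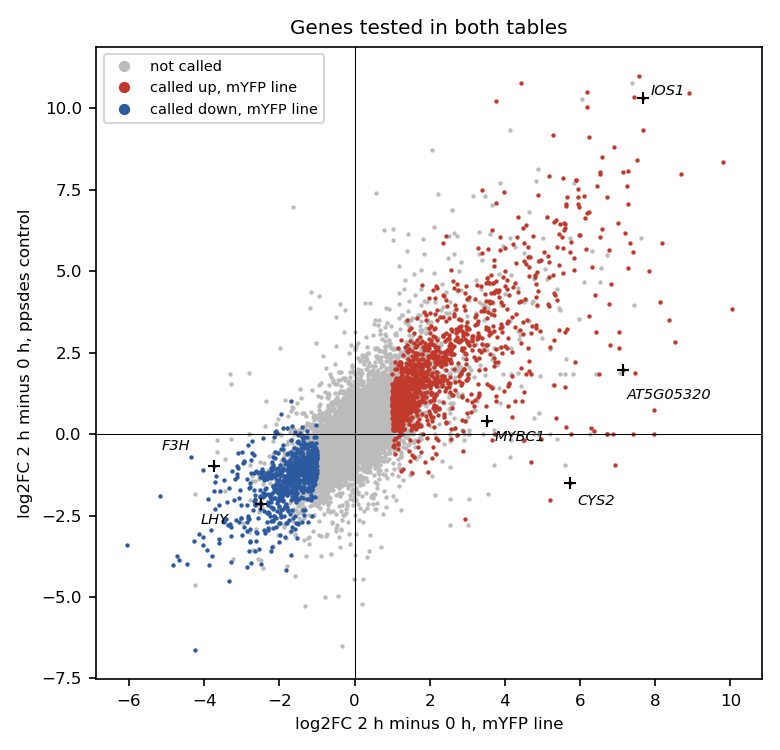
log2FC at 2 h against 0 h in the ppsdes control (vertical) and in the mYFP line (horizontal) for 19004 genes tested in both; red and blue points were called up and down in the mYFP line. LHY and IOS1 were called in both lines in the same direction, F3H has log2FC -3.73 and -0.98, and CYS2 lies at 5.73 and -1.49.

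The difference between the lines was tested as an interaction on all 60 libraries, which called 24 of 19929 genes (0.12%), 22 with a higher and 2 with a lower change in the mYFP line (69 by DESeq2, 10 to 24 with 1 library left out, the fewest without mYFP 0 h replicate 2). CYS2, a phytocystatin gene, was at 1.48, 1.54 and 0.958 CPM and then at 59, 54 and 98.4 in the mYFP line, and at 0.716, 3.06 and 2.42 and then 0.367, 0.873 and 0.944 in the ppsdes control (difference 7.24 ± 0.67, edgeR adjusted p = 1.38e-09). MYBC1 was at 2.31, 1.64 and 2.49 and then 26.5, 19.9 and 27.5 CPM against 2, 1.85 and 1.84 and then 2.43, 2.16 and 2.87 (difference 3.14 ± 0.43). The NAC factor gene ATAF1 rose in the mYFP line, from 17.3, 9.78 and 19.4 CPM to 66.4, 64.7 and 78.2 (difference 2.8 ± 0.47, with a log2FC of -0.61 ± 0.33 in the ppsdes control, not called). The methyl esterase gene MES11 rose from 12.3, 10.4 and 11.8 to 73.6, 65.9 and 87.4 (difference 2.76 ± 0.41, with -0.01 ± 0.33 in the ppsdes control, not called). The 2 lower ones were ADS2, a desaturase gene (difference -1.17 ± 0.23), and AT1G19370 (-1.35 ± 0.2). These genes were chosen after their values were seen.

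Other wide gaps between the lines did not pass the test. F3H was at 187, 146 and 139 CPM and then 118, 95.3 and 26.6 in the ppsdes control (difference -2.73 ± 0.81, edgeR adjusted p = 0.136), and CHS had a difference of -2.06 ± 1.05. AT5G05320 stayed at or below 0.505 CPM in the 0 and 2 h libraries of that control (difference 5.18 ± 1.43, edgeR adjusted p = 0.0931), and ELF3 had a difference of 1.29 ± 0.3 (edgeR adjusted p = 0.0322). The mutations, the transgene and the separate tables differ together between the lines and cannot be told apart.

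In the MLACC line 3739 of 19654 genes (19%) were called between 0 and 2 h, and the difference from the mYFP line was called for 68 (0.346%), all with the higher change under MLACC (308 by DESeq2). With 1 library left out 18 to 136 were called, the fewest without MLACC 0 h replicate 3 or 2 h replicate 1 and the most without MLACC 2 h replicate 3. Of the genes named by rule, these were SARD1, at 272, 230.3 and 169 CPM at 2 h in the MLACC line against 26.1, 34.1 and 7.21 in the mYFP line (difference 3.83 ± 0.7), and JAZ10, at 132, 117 and 65 against 13.9, 11.4 and 9.46 (difference 3.35 ± 0.55). ERF13, named after its values were seen, was at 53.2, 119 and 44 against 3.28, 2.42 and 0.406 CPM (difference 6.004 ± 1.07). WRKY40 was at 494, 370.2 and 264 CPM at 2 h in the MLACC line, with no replicate as low as 2 h replicate 3 of the mYFP line, and the difference was not called (3.002 ± 1.45, edgeR adjusted p = 0.399).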

How the data were processed

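Per the labels and the study's methods, the authors made poly(A) libraries with an unstranded kit, checked reads with FastQC (version 0.11.2), aligned them to TAIR10 with TopHat2 (version 2.0.10) and used HTSeq to tally reads in genes. Sources used here do not name the counting mode, the version of HTSeq or the annotation. Whole-number counts without normalization were deposited, in 1 table of 30 Col-0 libraries and 1 of 30 ppsdes libraries. The 6 libraries compared held 18816903 to 25146625 counts in genes. Rows that name no gene were left out of library sizes and tests; no-feature reads equalled 1.33% to 1.97% and reads without a unique alignment 7.95% to 12.7% of all tallies. Replicates are biological by the series' design, each a pool of discs of 6 plants. Their counts differed by more than sampling noise (chi-square per gene 14.3 to 75.9), so each was counted as 1 sample.

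Counts were tested with the quasi-likelihood F test of edgeR (version 4.0.16, limma version 3.58.1, R version 4.3.3) after TMM scaling and filterByExpr, with 1 mean per group and the spread estimated from all 30 libraries of the table. P values were adjusted by the Benjamini-Hochberg method over all genes tested, and a call needed FDR below 0.01 and an absolute log2FC above 1, the thresholds of the study. Standard errors were computed from the log2FC and F. The ppsdes contrast was fitted in its own table, and the difference between the lines on all 60 libraries. A group without counts was set to a floor of 3 counts over the group, and with 1 to 3 counts the ratio of CPM is given with its exact 95% counting interval, which covers counting error only. On simulated data, 36 of 40 genes changed 4-fold up and 17 of 40 changed 2-fold up were called, and none of 19342 unchanged genes. These rates were taken by size of change only. They were not measured for genes of low level, or for a group in which a library stands apart from its replicates. For such genes and groups they therefore do not tell how many calls are missed or false.

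The members and gene lists were chosen with earlier results of these data known. Named by rule were the 10 largest rises and 10 largest falls without overlap and with at least 5 CPM in the higher group. So were the 5 lowest p in each direction. Up to 4 called members of each list in each direction were named too, or the 2 largest changes where none was called. A fixed set of defining members of some lists, not of all, was named whatever the result. Genes of these that also differed between the lines were included. CYS2, MYBC1, MES11, ATAF1, ADS2, AT1G19370, AT1G28570, AT5G23820 and ERF13, the motifs and the 4 promoters were chosen after their values were seen. Gene positions, products and sequences are from RefSeq for TAIR10.1, which matched 31912 of 32678 genes. Since the kit does not mark strand, reads of WRKY33, WRKY40, FRK1, ELF3, MYC2, CAMTA3, SARD1, F3H, CHS, TCH2, CYS2, DREB2A, ABF3, AT3G21320, AT3G41762, AT3G01830, ATAF1, BCAT2, APR2, APR3, AFP1, MYB73, FIB2, P5CS1, ADH1, SULTR4;2, DIN6, DIN10, AT1G22882, AT1G52750, AT1G75370 and AT5G52810 cannot be told apart from those of an annotated gene that overlaps them. Alternatives were DESeq2 (version 1.42.0), its size factors in edgeR, no filter on low counts, the 6 or 12 compared libraries or the 15 mYFP libraries alone, replicate number as a block, FDR below 0.05, and each library left out in turn.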

Additional observations from a re-analysis of the deposited data

Results flagged for a closer look

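The change between 0 and 2 h differed from that of the ppsdes control by the interaction test (edgeR, FDR below 0.01 and absolute difference above 1) for 24 genes, 18 of which were also called in the mYFP line itself. Differences in log2FC, mYFP line minus ppsdes control, were 7.24 for CYS2, 3.16 for AT1G28570, 3.14 for MYBC1, 2.8 for ATAF1, 2.76 for MES11, 2.72 for AT5G23820, -1.17 for ADS2 and -1.35 for AT1G19370. AT1G28570 was at 2.07, 1.83 and 1.1 CPM and then 6.37, 5.42 and 7.57 in the mYFP line and at 1.79, 2.04 and 2.68 and then 1.19, 1.23 and 0.491 in the ppsdes control. AT5G23820 was at 6.52, 9.78 and 7.86 and then 17.439, 22 and 29.97 CPM in the mYFP line and at 5.63, 7.09 and 8.46 and then 2.94, 3.03 and 3.36 in the ppsdes control.

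The change differed between the MLACC line and the mYFP line for 68 genes, 11 of which were also called in the mYFP line. Differences in log2FC, MLACC line minus mYFP line, were 6.004 for ERF13, 3.83 for SARD1 and 3.35 for JAZ10.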

How the results depend on the processing

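No call among the named genes changed its direction under any alternative run. The count of risen genes, 1348, moved most when only the 6 compared libraries were fitted (833), and was 1512 by DESeq2 and 1782 at FDR below 0.05. For fallen genes the counts were 741, 692, 919 and 1051, and 1066 when the 15 mYFP libraries were fitted alone. Of the 2089 genes called with all 30 libraries, 1263 (60.5%) were also called with the 6 alone, the lowest share of any alternative. Leaving out 1 library gave 1492 to 2312 calls in all, 967 to 1644 up and 525 to 668 down. The difference from the ppsdes control (24 genes) was called for 69 by DESeq2, 86 at FDR below 0.05, 13 with the 12 compared libraries alone and 10 to 24 with 1 library left out. The difference of the MLACC line from the mYFP line (68 genes) was called for 308, 302, 13 and 18 to 136. Why the counts moved was not tested. With replicate number as a replicate block, 1318 genes rose and 757 fell (2075 in all, 2007 of them shared with the fit without it, 24 and 66 for the differences between lines). Deviations of same-numbered 0 and 2 h libraries correlated at 0.32, -0.29 and 0.01, and those of 0 h replicate 2 and 2 h replicate 3 at 0.37. Only 1 of the 6 libraries, 2 h replicate 1, correlated best with its own number. Deviations within a group depend on each other, so these values cannot show whether samples were collected in numbered sets. Of the 141 named genes called, 91 were called whichever library was left out, and leaving out 0 h replicate 1, 2 or 3 lost 33, 32 or 36 calls and 2 h replicate 1, 2 or 3 lost 25, 34 or 15. Fitting the 6 libraries alone lost 38 and added 2. Counts for single lists moved by over 1.5 times for 25 of 70 list counts with the 6 libraries alone and 9 of 70 by DESeq2. A gene that was not called is not shown to be unchanged.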

Other observations

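In the mYFP line 1507 genes were higher and 1071 lower at 4 h than at 0 h, 2028 and 1878 at 6 h, and 2290 and 2024 at 8 h (edgeR, same thresholds; the 0 h libraries are shared by all these contrasts). CYS2, low in the ppsdes control, was at 123 to 162 CPM at 4 h and 106 to 192 at 8 h in the mYFP line. XBAT31 was at 108 to 155 and 229.97 to 285 CPM, and AT5G05320 at 22.2 to 25 and 20.4 to 34.1. XTH25 stayed at 0.173 to 0.347 CPM at 4 h and 0.105 to 0.33 at 8 h, and EXL3 at 22.7 to 37.4 and 39.2 to 60.2. WRKY70 was at 6.86, 5.79 and 9.19 CPM at 4 h and 164, 51.6 and 46.6 at 8 h.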
